A study of Homo sapiens with 6 samples.

Results

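TIMM10, PNMA1, MYBL2, ADISSP, H1-10 and POP7 are 6 human mRNAs with many footprints of small ribosomal subunits pulled down through eIF3b relative to unselected ones. The eIF3b-bound footprints lay mostly in the 5′ UTR, or leader. The mRNAs were chosen by their readout, from a table of 9675 genes. Of the 10 genes with the highest whole-gene ratio (eIF3b-bound library over 40S 1) among the 2047 genes that reached 50 footprints in both libraries separately, they are the 6 with most eIF3b-bound footprints in the leader. The ratio and the leader shares are therefore given as descriptions with no test.

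The cells were HEK293T, an established human embryonic kidney line, kept in culture at 37 °C for 48 h and crosslinked with formaldehyde (0.3%, 5 min). RNase I then removed RNA that no ribosomal complex covered. The series holds 6 libraries: 2 of unselected 40S, 2 of unselected 80S, 1 of 40S complexes bound by a goat antibody against eIF3b, and 1 of poly(A) mRNA. Footprints per gene and area were compared between the eIF3b-bound library (947733 footprints) and 40S 1 (834172 footprints), that is, 1 library against 1, with neither a replicate nor a test. All intervals are exact 95% Clopper-Pearson intervals, which cover counting error alone and leave out variation between libraries. They take each read as a separate molecule. PCR copies could not be separated from molecules, so the intervals may be too narrow even for counting error. No gene counts of the other libraries were used here, so a high footprint count cannot be told apart from abundant mRNA, and only ratios and shares are read across genes. Of 9 genes fixed as markers of HEK293T cells, SOX4, KRT8 and NEFM were measured and the other 6 were not found under their symbols. Of 11 markers of other cell types, COL1A2 had 6 eIF3b-bound footprints and none in 40S 1, and CD3E and HBB had none in either. The rest of the 11 were not found under their symbols either.

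In the scanning model of initiation, the 40S subunit joins an mRNA near its 5′ cap with a set of initiation factors and moves through the leader until it meets a start codon, where the 60S subunit joins. eIF3 is the multi-subunit factor that binds the 40S subunit and helps to bring it to the mRNA, and eIF3b is one of its core subunits. Footprints in the leader are thus those of subunits that have not yet reached the start codon, or that start upstream of it. The proteins encoded by the 6 mRNAs have unrelated roles: mitochondrial protein import (TIMM10), transcription of cell cycle genes (MYBL2), chromatin packing (H1-10), processing of tRNA precursors (POP7), a protein derived from a retrotransposon Gag (PNMA1) and a signalling protein secreted from fat tissue (ADISSP).

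The annotated 5′ ends of the leaders are shown because most eIF3b-bound footprints of these mRNAs lay downstream of them, in the 5′ UTR area. The letters are from the RefSeq promoter table of GRCh38.p14, which had an entry for 5 of the 6 genes (PNMA1 was not among them) and a pair of start sites for ADISSP. Each line holds 10 bases before the annotated start in lower case and the first 20 transcribed bases in capitals, written 5′ to 3′ on the strand of the gene.
TIMM10, chr11:57530735-57530764, minus strand: gaagtaacccACGTGCTTCCGCTGGAGCCT
MYBL2, chr20:43667104-43667133, plus strand: cgccggcggcGACTGCAGTTCCTGCGAGCG
ADISSP downstream start, chr20:3767734-3767763, minus strand: gcgcggggctCCCTTCCTCGTGCTCGGCGT
ADISSP upstream start, chr20:3768369-3768398, minus strand: gtgccttcttTGTTCTGATGCTTCTCCAGG
H1-10, chr3:129316267-129316296, minus strand: ccctcccgccAGAGCGCAGCGCGCACGCCC
POP7, chr7:100706111-100706140, plus strand: gcgcgtgcgcACTCCGCAGCCCGTTCAGGA

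These 5′ ends had no common first base or run of letters. TIMM10, H1-10 and POP7 began with A and MYBL2 with G. Only the downstream ADISSP start began with a C followed by at least 4 bases that were all C or T, the form of a 5′ terminal oligopyrimidine tract, with an unbroken run of 9 such bases; among 4384 entries of 3364 genes tested, 5.52% had that form on the transcribed strand. The letters ATG occurred within the first 50 transcribed bases of 1 of the 6 entries, the upstream ADISSP start, against 32.2% of all entries. The GC content of these 50 bases was 56% in TIMM10, 68% in MYBL2, 72% and 70% at the downstream and upstream ADISSP starts, 70% in H1-10 and 78% in POP7, beside a median of 66% and quartiles of 60% and 74% over all entries. TIMM10 thus lay below the lower quartile and POP7 above the upper one. Which start site the footprints came from is not given in the sources used here, and the letters past these windows were not used here.

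TIMM10 encodes a small chaperone of the mitochondrial intermembrane space that escorts membrane proteins during import (ENSG00000134809, chromosome 11 from 57528464 to 57530754, GRCh38.p14 by symbol). It had 709 footprints in the eIF3b-bound library, 748 as a count scaled to the library total (CPM), and 111 in 40S 1, 133 CPM. In the eIF3b-bound library 562 footprints lay in the leader, 74 at the start codon, 40 in the coding sequence, 6 at the stop codon and 27 in the 3′ UTR. In 40S 1 the corresponding counts were 52, 30, 23, 1 and 5. Its start codon area held 27% of its 40S 1 footprints (interval 19.0 to 36.3%), the highest such share among the 6 mRNAs. The whole-gene log2 ratio of CPM was 2.49 (interval 2.201 to 2.79), the third highest of the 2047 genes.

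MYBL2 encodes B-Myb, a transcription factor that acts with the MuvB complex on genes needed for mitosis (ENSG00000101057, chromosome 20 from 43667114 to 43716482). It had 1603 eIF3b-bound footprints (1691 CPM) and 298 in 40S 1 (357 CPM), which gave a log2 ratio of 2.24 (interval 2.06 to 2.43). The leader took 1404 of the eIF3b-bound footprints, the start codon 46, the coding sequence 113, the stop codon 8 and the 3′ UTR 32. In 40S 1 the leader had 102, the start codon 29, the coding sequence 136, the stop codon 3 and the 3′ UTR 28. Most MYBL2 footprints thus lay in the leader in the eIF3b-bound library but not in 40S 1. In 40S 1 its coding sequence held more footprints (45.6%, interval 39.9 to 51.5%) than its leader (34.2%, interval 28.9 to 39.9%). That leader share was still above the median of 10.8% in 40S 1 over the 2047 genes. The leader share differed by 53.4 percentage points between the libraries, more than for any other of the 6.

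H1-10 encodes the linker histone H1X, which binds DNA between nucleosomes (ENSG00000184897, chromosome 3 from 129314771 to 129316286). Its 1949 eIF3b-bound footprints (2056 CPM) and 374 footprints in 40S 1 (448 CPM) gave a log2 ratio of 2.2 (interval 2.04 to 2.36). Nearly all of the eIF3b-bound footprints, 1852, were in the leader, with 34 at the start codon, 39 in the coding sequence, 6 at the stop codon and 18 in the 3′ UTR. In 40S 1 the counts were 238, 26, 95, 9 and 6 in the same order. Its leader share was the highest of the 6 in the eIF3b-bound library, at 95.02% (interval 94.0 to 95.9%). The annotated gene overlaps the long non-coding RNA H1-10-AS1 by 16 bases at its 5′ end, and the use of strand in the counting is not given in the sources used here, so reads of the pair cannot be told apart there.

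POP7 encodes a protein subunit of RNase P and RNase MRP, the enzymes that trim the 5′ ends of tRNAs and process ribosomal RNA (ENSG00000172336, chromosome 7 from 100706121 to 100707486). It had 803 eIF3b-bound footprints (847 CPM) against 154 in 40S 1 (185 CPM), for a log2 ratio of 2.19 (interval 1.95 to 2.46). In the eIF3b-bound library the leader held 693, the start codon 66, the coding sequence 29 and the 3′ UTR 15. In 40S 1 the leader held 81, the start codon 12, the coding sequence 39, the stop codon 1 and the 3′ UTR 21. The stop codon area had 0 of 803 eIF3b-bound footprints, which allows a share of up to 0.374%.

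PNMA1 encodes a paraneoplastic Ma antigen, a neuronal protein first known as the target of autoantibodies (ENSG00000176903, chromosome 14 from 73711783 to 73714384). With 391 eIF3b-bound footprints (413 CPM) and 71 for 40S 1 (85.1 CPM) it was the least covered of the 6, with a log2 ratio of 2.27 (interval 1.91 to 2.66). Its leader held 368 and 49 of them, its coding sequence 13 and 18, and its 3′ UTR 7 and 4, in the eIF3b-bound library and 40S 1. Almost no footprint lay at its start codon, with 3 in the eIF3b-bound library and 0 of 71 in 40S 1, which allows a share of up to 4.23%; both are at the floor of 3 counts, so no fold is given. ADISSP encodes an adipose-secreted signalling protein (ENSG00000101220, chromosome 20 from 3753508 to 3768388). It had 1214 eIF3b-bound footprints (1281 CPM) and 229 in 40S 1 (275 CPM), or a log2 ratio of 2.22 (interval 2.02 to 2.43). Its footprints were the most spread out of the 6, with 851 in the leader, 60 at the start codon, 222 in the coding sequence, 1 at the stop codon and 80 in the 3′ UTR in the eIF3b-bound library, and 103, 13, 86, 5 and 22 in 40S 1.

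**Figure D1:**
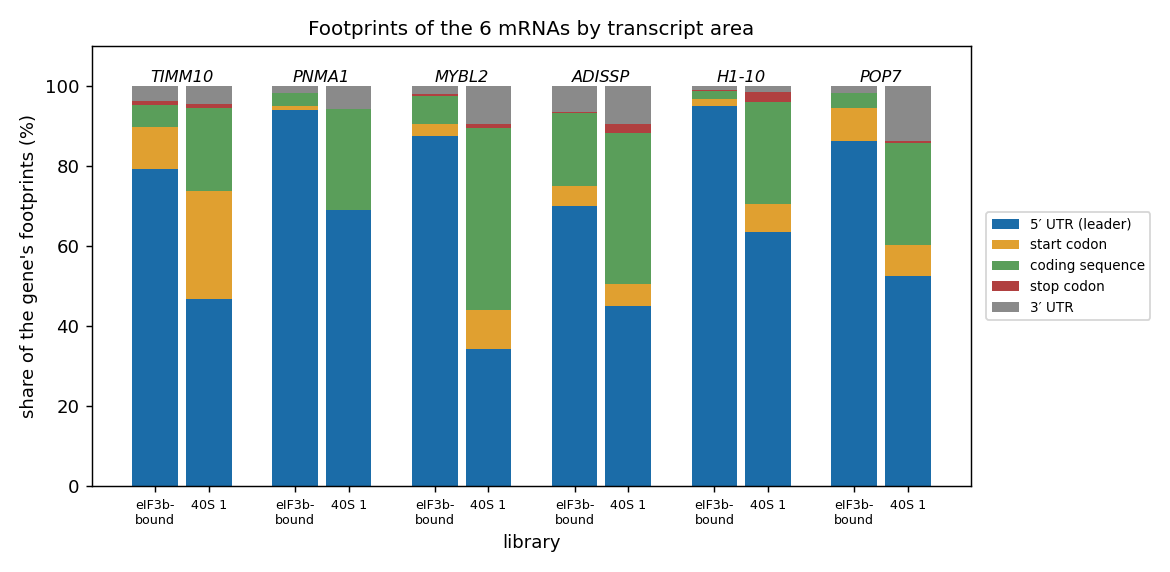
Share of each gene's footprints (%, y axis) in the 5 transcript areas, as stacked bars for the eIF3b-bound library and 40S 1 (x axis). The leader takes 70.1 to 95.02% of the eIF3b-bound footprints and 34.2 to 69.0% of those in 40S 1, and coding sequences take a larger part in 40S 1 for all 6 mRNAs.

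The selection required most eIF3b-bound footprints of each of the 6 mRNAs to lie in the leader. In 40S 1 the leader share was lower for each of them. Together they had 5730 of 6669 eIF3b-bound footprints in leaders, 85.9%, and 625 of 1237 in 40S 1, 50.5%. In the eIF3b-bound library the share was 95.02% for H1-10, 94.1% for PNMA1, 87.6% for MYBL2, 86.3% for POP7, 79.3% for TIMM10 and 70.1% for ADISSP. The intervals of H1-10 (94.0 to 95.9%) and PNMA1 (91.3 to 96.2%) overlapped, as did those of MYBL2 (85.9 to 89.2%) and POP7 (83.7 to 88.6%), while those of TIMM10 (76.1 to 82.2%) and ADISSP (67.4 to 72.7%) lay apart from them and from each other. In 40S 1 the order was different: PNMA1 69.0%, H1-10 63.6%, POP7 52.6%, TIMM10 46.8%, ADISSP 45.0% and MYBL2 34.2%. There the counting intervals of all neighbours in the order overlapped. Most footprints lay in the leader for 6 of 6 mRNAs in the eIF3b-bound library and for PNMA1, H1-10 and POP7 in 40S 1. The 6 of 6 was set by the selection, so nothing is read from it. As background, 1012 of the 2047 genes (49.4%) had most of their eIF3b-bound footprints in the leader, and 86 (4.20%) had most of their 40S 1 footprints there.

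The fold difference of the 6 whole genes lay mainly in their leaders, which follows from the values that chose them (a high ratio and most eIF3b-bound footprints in the leader) and is a description. The leader held 103.8% of the CPM difference between the libraries for H1-10, 101.9% for MYBL2, 100.6% for PNMA1, 95.7% for POP7, 86.3% for TIMM10 and 77.0% for ADISSP; a value above 100% means that the areas outside the leader together had fewer CPM in the eIF3b-bound library. All 6 whole genes exceeded the median gene (log2 ratio 0.25) by 2-fold or more, as did 18.2% of 4175 genes with at least 20 counts; the members were chosen on this ratio, so nothing is read from that count. Their median whole-gene log2 ratio was 2.23, and 1.63 with 3′ UTRs left out of counts and totals. Set against other leaders, the same mRNAs stood out less. The leader log2 ratio was 3.59 for MYBL2 (interval 3.31 to 3.90), 3.24 for TIMM10 (2.84 to 3.69), 2.90 for POP7 (2.58 to 3.26), 2.86 for ADISSP (2.57 to 3.17), 2.77 for H1-10 (2.58 to 2.98) and 2.71 for PNMA1 (2.29 to 3.19), and the median over 2407 measured leaders was 2.27 with quartiles of 1.70 and 2.82. H1-10 and PNMA1 were inside the quartiles of all leaders. Each of the 6 lay above the median leader, and 1 of 6, MYBL2, lay at least 2-fold above it, where 14.7% of leaders did. Leader counts also enter the values that chose the members, so nothing is read from these counts either.

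Outside the leader the 6 mRNAs differed among themselves. Outside its leader ADISSP had 363 eIF3b-bound footprints against 126 unselected ones, with a log2 ratio of 1.34 (1.05 to 1.65 by counting), and TIMM10 had 147 and 59, a ratio of 1.13 (0.69 to 1.59). POP7 had 0.40 (interval -0.03 to 0.85), PNMA1 -0.12 (-1.03 to 0.79), MYBL2 -0.16 (-0.45 to 0.13) and H1-10 -0.67 (-1.06 to -0.29). The median over 3831 genes measured outside the leader was -0.62. ADISSP, TIMM10 and POP7, 3 of 6, lay at least 2-fold above it, beside 21.2% of genes, and H1-10 was the one below it. Footprints outside the leader enter the whole-gene ratio that chose the members, so the count of 3 is not read as a result. Outside its leader and its sparsely covered 3′ UTR, H1-10 had similar or fewer CPM in the eIF3b-bound library, while ADISSP was higher in the eIF3b-bound library in each area with at least 20 footprints.

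By area, coding sequence log2 ratios ran from -1.46 to 1.18. ADISSP had a coding sequence log2 ratio of 1.18 (interval 0.82 to 1.56) and TIMM10 of 0.60 (-0.16 to 1.42). Both were at least 2-fold above the median coding sequence at -0.64, as were 22.4% of 2734 coding sequences. Coding sequence counts enter the whole-gene ratio that chose the members, so nothing is read from this comparison. MYBL2 at -0.45, POP7 at -0.61 and PNMA1 at -0.64 lay at or close to that median, and H1-10 at -1.46 (interval -2.05 to -0.92) lay below it. At start codons POP7 had the highest ratio, 2.23 (interval 1.38 to 3.30), and was the 1 of 5 measured at least 2-fold above the median of 1.22, as were 14.6% of 1333 start codon areas. The start codon areas of POP7 (66 against 12 footprints) and ADISSP (60 against 13) passed the minimum only through the eIF3b-bound library. That count is therefore not read as a result. ADISSP followed at 1.98, TIMM10 at 1.10, MYBL2 at 0.47 and H1-10 at 0.20 (interval -0.58 to 1.00), so that the mRNA with the highest leader share had the lowest start codon ratio. The 3′ UTRs had 102 footprints or fewer in both libraries together. TIMM10 (2.14, interval 0.85 to 3.98), ADISSP (1.65, 0.98 to 2.43), H1-10 (1.32, 0.01 to 3.02) and MYBL2 (0.01, -0.77 to 0.79) lay at least 2-fold above the median of -1.53. These were 4 of 5, beside 28.9% of 2741 3′ UTRs, and POP7 had -0.66 (-1.73 to 0.36). The 3′ UTR of TIMM10 (27 against 5 footprints) passed the minimum only through the eIF3b-bound library. That of H1-10 (18 against 6) passed it only with both libraries added, and mostly through the eIF3b-bound one. The count of 4 is therefore not read as a result. Stop codon areas had too few footprints for a ratio in any of the 6.

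**Figure D2:**
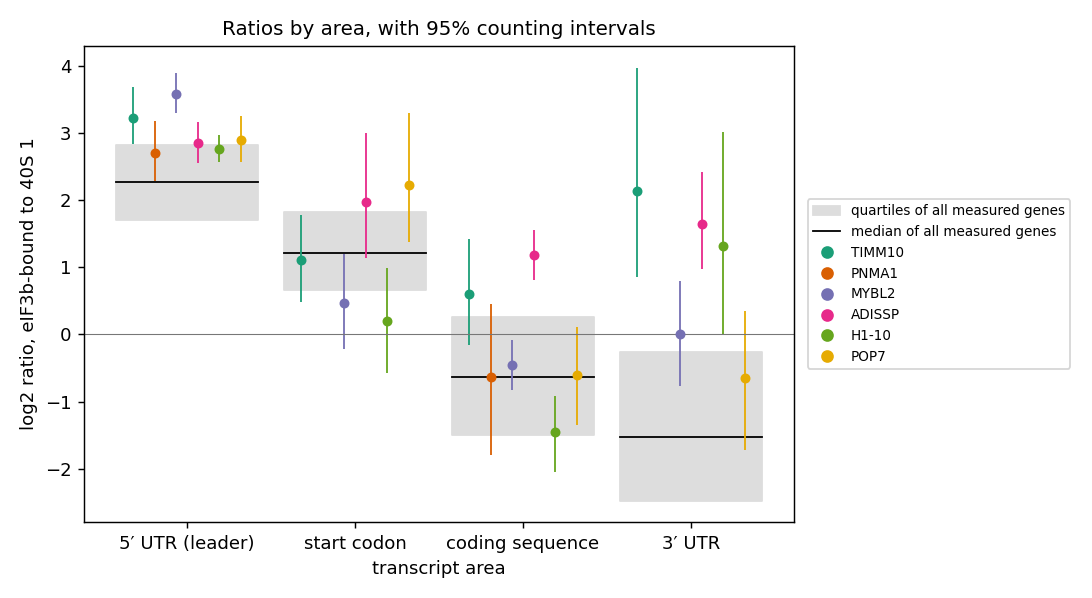
Log2 ratio, eIF3b-bound over 40S 1 (y axis), in 4 transcript areas (x axis) for each of the 6 mRNAs, with 95% counting intervals as bars, over the median (line) and quartiles (grey) of all genes with at least 20 counts in that area. The leader values run from 2.71 to 3.59, all above the median leader at 2.27, and the coding sequences spread from -1.46 for H1-10 to 1.18 for ADISSP.

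How far the area make-up of an mRNA goes with its whole-gene ratio was computed by multiplying each area's 40S 1 count by the median ratio of that area. The calculated log2 ratio was 1.81 for PNMA1, 1.77 for H1-10, 1.61 for TIMM10, 1.55 for POP7, 1.37 for ADISSP and 1.14 for MYBL2. The observed ratio exceeded the calculated one for each of the 6, by 1.10 for MYBL2, 0.88 for TIMM10, 0.85 for ADISSP, 0.64 for POP7, 0.45 for PNMA1 and 0.42 for H1-10. MYBL2 was the 1 of 6 with an excess of at least 1, beside 7.67% of the 2047 genes, whose excess had a median of 0.01 and quartiles of -0.36 and 0.43. PNMA1 and H1-10, the mRNAs with the most leader-rich 40S 1 profiles, thus lay near that upper quartile. The counts that chose the members also enter this excess. The 86 genes with most 40S 1 footprints in the leader had a median log2 ratio of 1.51 (quartiles 1.02 and 1.78), and the 1012 with most eIF3b-bound footprints there had 0.61 (quartiles 0.01 and 1.17).

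**Figure D3:**
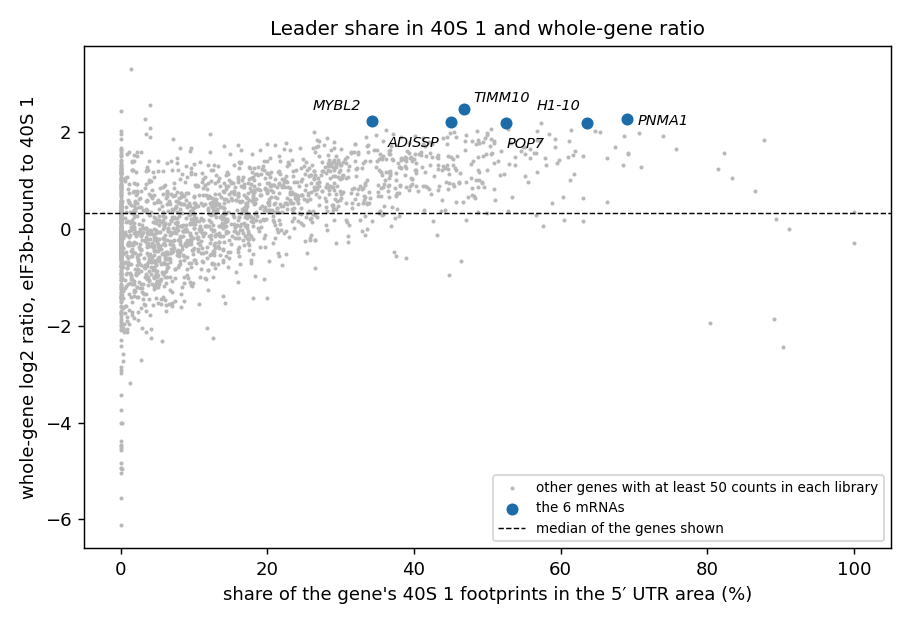
Whole-gene log2 ratio, eIF3b-bound over 40S 1 (y axis), against the share of the gene's 40S 1 footprints in the 5′ UTR area (%, x axis) for the 2047 genes that reached 50 counts in both, 1 point per gene. The 6 mRNAs lie at the upper edge between 34.2% (MYBL2) and 69.0% (PNMA1), and the dashed line is the median gene at 0.32.

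The limit of the selection passed through a continuous range of values. POP7, the tenth gene, had a log2 ratio of 2.19, and MTPN, a small ankyrin repeat protein and the next gene, had 2.18 with 1066 against 206 footprints and 84.0% of its eIF3b-bound footprints in the leader. TSPO, an outer mitochondrial membrane protein, followed at 2.09 with 56.7% in the leader, TSC22D3, a glucocorticoid-induced leucine zipper protein, at 2.06 with 91.0%, NAA50, an N-terminal acetyltransferase, at 2.06 with 79.3%, and HNRNPA0, an RNA-binding protein, at 2.06 with 91.2%. TSPO had 4% of its 40S 1 footprints in the leader, and the other 4 had 50.4 to 61.4%. The 4 genes within the highest 10 that were not leader-loaded had other areas in their place: the coding sequence held 96.9% of the eIF3b-bound footprints of HPS6, 86.4% of SDF2L1 and 85.6% of KRT10, and the 3′ UTR 81.5% of C1GALT1C1.

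Genes with the most similar profile were sought over 10 values, the CPM of 5 areas in each of the 2 libraries divided by their sum, as the percentage that would have to move between values to turn one profile into the other. The profiles of PNMA1 and H1-10 were the closest pair among the 6, 2.93% apart, and ADISSP and H1-10 the most distant, 24.2% apart. Nearest to the mean of the 6 were GMNN, an inhibitor of replication licensing (4.92%, log2 ratio 1.83), and PRELID1, a mitochondrial lipid transfer protein (5.38%, 1.83). For single mRNAs the nearest gene was HNRNPA0 for both PNMA1 (5.16%) and H1-10 (6.18%), GMNN for POP7 (4.25%), the tumour suppressor candidate TUSC2 for ADISSP (5.18%), CMC1, an assembly factor of cytochrome c oxidase, for TIMM10 (6.05%) and HSPA5, a chaperone of the endoplasmic reticulum, for MYBL2 (6.08%). The likeness covers 2 libraries and is a description.

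Each mRNA was then set beside other genes of its pathway or family, as counts of whole genes 2-fold or more from the median gene, with backgrounds of 18.2% above and 22.2% below. In the PNMA family and related genes derived from retrotransposons, 11 of 14 measured genes other than PNMA1 were at least 2-fold above, 1 below and 2 between, with a median log2 ratio of 1.60 beside 0.25 for all genes. Of those 11, ZCCHC18, ZCCHC12, RTL8B, ARC and PNMA8B had at most 10 footprints in 40S 1 and passed the minimum only through the eIF3b-bound library, so that count and median are not read as a result. With at least 20 counts required in 40S 1 alone, a filter chosen after seeing the data, 6 of 9 were at least 2-fold above, beside 12.9% of 3430 genes, with a median of 1.39 beside 0.10. PNMA2, another Ma antigen, had 206 against 44 footprints, a log2 ratio of 2.03 (interval 1.57 to 2.55), with 91.3% of its eIF3b-bound footprints in the leader, close to PNMA1. MOAP1, a Ma-family protein that activates the apoptosis factor BAX, had 113 against 20 footprints (2.28, interval 1.62 to 3.08), with 96.5% in the leader. PNMA6A, another gene of the family, had 50 against 54 footprints, a log2 ratio of -0.29 (interval -0.88 to 0.29), with 94% and 100% in the leader; it has near-identical copies, so its counts are uncertain. Among the other genes of the list the leader share varied. RTL10 (1.39) had 89.6% in the leader, RTL8A (1.65) 20.3%, and the leader of RTL8C (-0.92) is listed at 0 in both libraries; RTL8A, RTL8B and RTL8C are near-identical copies, and reads could be split among them. The 10 measured leaders of this list had a median log2 ratio of 2.19, beside 2.27 for all leaders. Several of them passed the minimum only through the eIF3b-bound library, such as RTL8A (35 against 0 leader footprints), ZCCHC18 (26 against 6) and ZCCHC12 (25 against 6). This leader median is therefore not read as a result either. The sparsest, PNMA8B, had 25 against 1 footprints, a log2 ratio of 3.90 with an interval of 1.85 to 9.82.

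Among the other linker histones, H1-2, H1-3 and H1-4, which are made during DNA replication, had log2 ratios of 0.28, -0.05 and -0.91; H1-4 was at least 2-fold below the median gene and the others lay between. H1-5, of the same kind, had 2.59 from 37 against 5 footprints and passed the minimum only through the eIF3b-bound library. The leader areas of these 4 genes are listed at 0 in both libraries, and whether the table counts a leader area for them is not given in the sources used here, so their leaders are not compared with that of H1-10. Reads of the replication-dependent histone genes can be shared between near-identical copies.

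Of 22 measured mitochondrial import genes other than TIMM10, 4 were at least 2-fold higher than the median gene, the same share as over all genes (18.2%), 0 were lower and 18 lay between, with a median of 0.57 beside 0.25 for all genes. TIMM9, the partner of TIMM10 in its chaperone complex, had 334 against 160 footprints, a log2 ratio of 0.88 (interval 0.60 to 1.16), with 72.8% of its eIF3b-bound and 48.8% of its 40S 1 footprints in the leader. Among the most covered genes of the list, TIMM13, another small chaperone, had 1.40, TOMM6 and TOMM20, of the outer membrane translocase, 0.55 and 0.53, and HSPA9, the mitochondrial Hsp70, -0.48. TIMM10B, a related small chaperone, had a leader listed at 0 in both libraries and a log2 ratio of 0.35 (interval -0.04 to 0.74). Thus the leader share of TIMM9 was near that of TIMM10 in both libraries, and its ratio was 1.61 lower on the log2 scale.

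RNase P and MRP subunits other than POP7 had a median of 0.24, and 0 of 6 measured differed from the median gene by 2-fold. RPP25 (1.18, interval 0.83 to 1.55) and its paralogue RPP25L (1.203, interval 0.73 to 1.72) came closest; RPP25 encodes the partner with which the POP7 protein forms a dimer, and had 76.5% of its eIF3b-bound footprints in the leader. The leader of POP5 (0.36) is listed at 0 in both libraries, and RPP14 (0.00) had 26.0% of its eIF3b-bound footprints there. Genes of the MYB-MuvB complex and of its mitotic targets had a median of 0.20, with 0 of 11 measured at least 2-fold higher than the median gene, 3 lower and 8 between. CKS2, a subunit of cyclin-dependent kinase complexes, had 1.13, TFDP1, a dimer partner of E2F factors, 0.20, TOP2A, a topoisomerase, -0.14, and FOXM1, which acts with B-Myb on mitotic genes, -0.33. FOXM1 had 59.2% of its eIF3b-bound footprints in the leader but 287 footprints in 40S 1, of which 205 lay in the coding sequence.

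**Figure D4:**
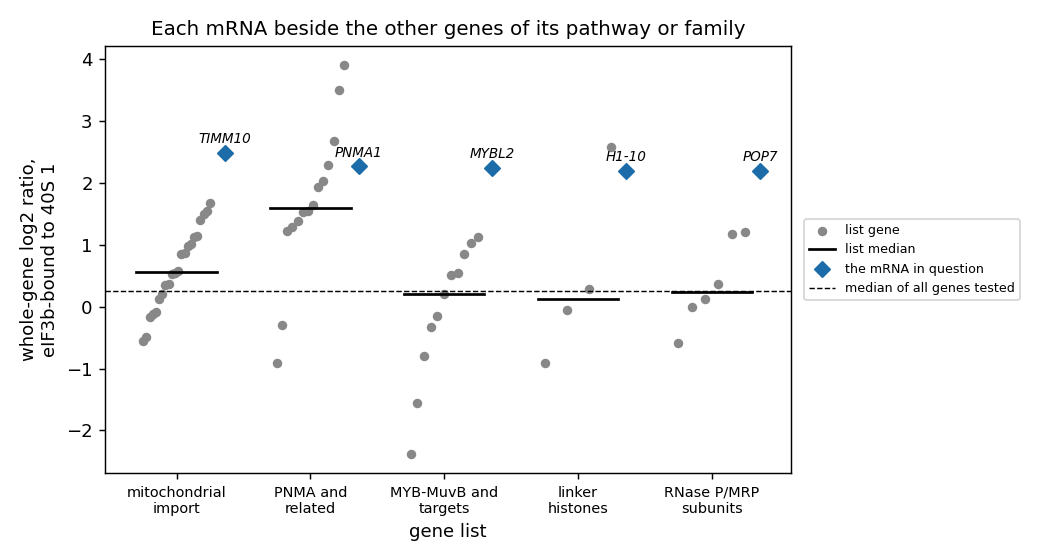
Whole-gene log2 ratio, eIF3b-bound over 40S 1 (y axis), for 5 gene lists (x axis), 1 grey point per gene with at least 20 counts, spread sideways in order of value, with the list median as a line, the mRNA of the same pathway as a diamond and the median gene (0.25) as a dashed line. The PNMA list has a median of 1.60, with 5 of its 14 genes measured only through the eIF3b-bound library (1.39 over the other 9), and the other 4 medians lie between 0.12 and 0.57, where the linker histones include H1-5 with 5 footprints in 40S 1.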

How the data were processed

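The authors deposited whole-number footprint counts per gene in 5 areas of the transcript, from the 5′ UTR to the 3′ UTR, of the eIF3b-bound 40S library and 40S 1, per the file headers. TopHat2 2.1.0, Bowtie2 2.2.6, Bowtie 1.2.2, CASAVA 1.8 and the build GRCh38 are named in the submitters' processing notes; per the labels, both libraries had been paired ends with only read 1 used. The limits of each area, strand use and the treatment of multiply matching reads: not given in the sources used here.

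Areas were summed per gene. Ratios are log2 CPM differences after 0.5 was added to each count, for genes (or areas) with 20 counts or more over the 2 libraries, and depth sets the printed Clopper-Pearson intervals (scipy 1.17.1). A symbol was found for 8322 identifiers and none for 1353. No column was left unmapped (0). Leader lengths and start codon contexts, planned from transcripts, were not analysed here; the first 50 transcribed bases of RefSeq entries were used in their place. The whole-gene ratio and its interval were tested on simulated counts that held counting error alone. The other steps were not tested in that way. The members and gene lists were chosen with earlier results of these data known. Genes named are the members, the 10 highest ratios and the next 5, up to 4 list genes with the most counts and the nearest profiles; other list genes (TIMM9, TIMM10B, MOAP1, PNMA6A, RTL8B, ZCCHC18, ZCCHC12, ARC and PNMA8B) and the calculated ratio were chosen after values were seen. Some genes that these rules would name are not reported here.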

Additional observations from a re-analysis of the deposited data

How the results depend on the processing

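The comparison has 1 library on each side, so no library could be left out. No paired analysis was possible because the series holds 1 eIF3b-bound library, which gives at most 1 pair. Totals without the 10 genes highest in 40S 1 lowered the members' median whole-gene log2 ratio from 2.23 to 1.77 and their median leader ratio from 2.88 to 2.42; the whole-gene median was 1.63 with 3′ UTRs left out and 1.98 with the median gene set to 0, and the leader median was 0.68 with totals over leaders only. A change of totals, or the median gene set to 0, moves all members alike; leaving out 3′ UTRs also removes counts of the members themselves, and POP7 went from 2.19, the lowest of the 6, to 1.66, the second highest. The median leader share was 86.9% of eIF3b-bound footprints, 92.5% with start codon areas added and 88.9% without stop codons and 3′ UTRs; in 40S 1 it was 49.7%, and 64.7% with start codon areas added. Genes at least 2-fold above the median gene numbered 761 of 4175, and 1561 of 6294 with a minimum of 1 count. Leaders at least 2-fold above the median leader numbered 353 of 2407, and 159 of 1609 (9.88%) with a minimum of 50 counts. For single members 31 values stayed within their counting interval, 41 moved beyond it and 0 changed sign. Leader shares cannot change sign and the members were chosen for high ratios, so nothing is read from that 0. The excess over the calculated ratio had a median of 0.74, and 0.83 with pooled area ratios; the PNMA list had 11 genes past the same 2-fold limit, and 6 with 20 counts or more required in 40S 1 alone; both alternatives were added after seeing the data. Leaders from another choice of transcript were not run. Depth limits stop codon areas and PNMA1 outside its leader.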
